A study of Homo sapiens with 24 samples.

Results

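The nuclear pore complex was examined through 31 genes, listed by name as nucleoporins and their direct partners in the pore. The symbols were matched to the Ensembl identifiers of the expression table, and 31 of the 31 listed genes were found among its 12285 genes. No member was lost to a filter on low values. The choice of genes used no measured value, although it was made with earlier results of these data in view.

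The nuclear pore complex is the channel through the nuclear envelope. It carries proteins, ribosomal subunits and messenger RNA between nucleus and cytoplasm, with the help of transport receptors and the small GTPase Ran. It is built from modules that are each present in many copies: the Y complex and the inner ring form the scaffold, membrane nucleoporins anchor it, a central channel holds the phenylalanine-glycine repeats that form the barrier, and filaments and a basket extend to the cytoplasmic and the nuclear side. Dividing human cells take the pore apart at mitosis and rebuild it afterwards, and they assemble further pores during interphase as the nucleus grows.

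RNA was sequenced from the human erythroleukaemia line K562 after centrifugal elutriation, which separates cells by size and so yields cells at a similar stage of the cell cycle. Cells grew in RPMI with 10% bovine calf serum and penicillin/streptomycin, and 1 library was made every 2 h from 0 h to 46 h, giving 24 time points that together span an assumed cycle of 24 h and its repeat. There was no other treatment or genotype, no replicate and no unsynchronised control, and all libraries came from this 1 cell line, so every p-value below measures the spread between time points of 1 experiment. K562 carries a known fusion between NUP214, a member, and XKR3, and the table gives 1 value for each gene, so RNA from the intact and the rearranged copies of NUP214 cannot be told apart.

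Values were FPKM (fragments per kilobase of transcript, scaled to the size of the library), so levels can be compared between genes, but the number of reads behind them is unknown and no counting error can be given. The study named 16 h and 18 h as irregular libraries and 32 h as a mild case. The 16 h and 18 h libraries listed 102 and 115 genes at 0 FPKM, the 6 h and 32 h libraries 35 and 58, and the other 20 libraries 4 to 27. The erythroid identity held: 10 of 10 erythroid markers were present, with a summed level of 3988 to 8710 FPKM, against 1 of 5 fibroblast markers (COL1A2, up to 3.94 FPKM). CD3D, a T cell marker, was present at 4.20 to 12.9 FPKM. The erythroid sum was among its lowest in the irregular libraries, at 4321 FPKM at 16 h and 3988 FPKM at 18 h.

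Nuclear pore transcripts were well above the typical gene. Over the 22 libraries without 16 h and 18 h, mean levels ran from 20.6 to 143 FPKM with a median of 57.0 FPKM, against a median of 13.6 FPKM over all genes, and 84.6% of genes lay below the median member. NUP214, which docks export complexes on the cytoplasmic face, had the highest level at 143 ± 28.3 FPKM (SD over 22 time points). SEC13, a Y complex subunit that also serves in the COPII vesicle coat, was next at 125 ± 10.0 FPKM, a gap smaller than the spread of NUP214 over time. NUP107, a Y complex subunit, followed at 114 ± 7.73 FPKM and NUP205, a large inner ring scaffold protein, at 105 ± 6.61 FPKM. At the lower end stood POM121, a membrane nucleoporin, at 20.6 ± 3.07 FPKM, GLE1, the activator of the mRNA export helicase, at 21.6 ± 1.91 FPKM, NUP35 of the inner ring at 22.3 ± 2.15 FPKM and RANBP2, the largest cytoplasmic filament protein, at 23.1 ± 1.68 FPKM. In 6 of the 30 steps between neighbours in this order the gap exceeded the larger of the 2 standard deviations. These were the steps from SEC13 to NUP107, NUP107 to NUP205, NUP205 to NUP37, NUP88 to AHCTF1, AHCTF1 to NUP58 and NUP50 to RANBP2, and in the other 24 the neighbours did not differ beyond their spread.

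**Figure D1:**
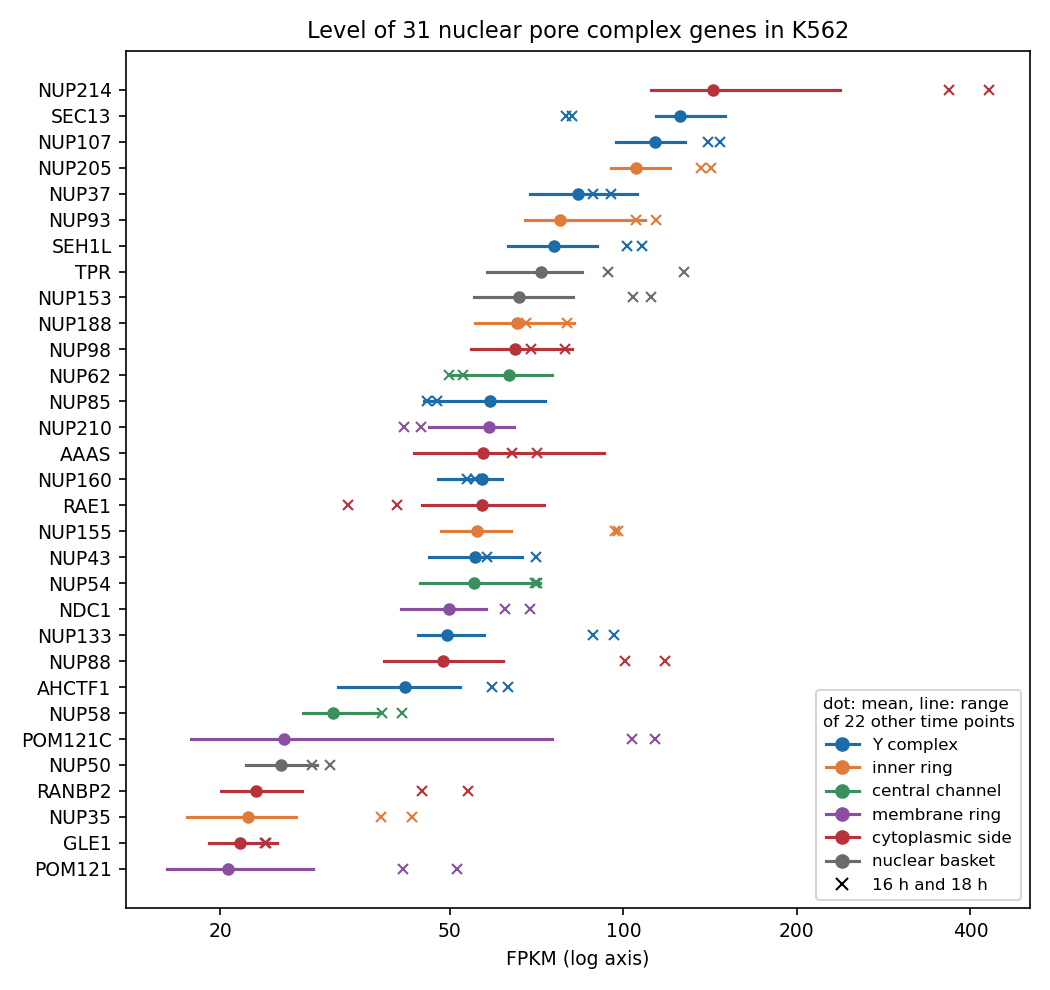
Levels of the 31 genes in FPKM on a log axis, with the mean (dot) and range (line) of 22 time points and the 16 h and 18 h libraries as crosses, coloured by part of the pore. Means ran from 20.6 FPKM for POM121 to 143 FPKM for NUP214, and the crosses of NUP214, POM121C, NUP88 and RANBP2 lie far to the right of their lines.

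Levels within a module were not equal. Members of the Y complex, which enter the scaffold in similar numbers, ran from 41.9 FPKM for AHCTF1, the subunit that brings the complex to chromatin after mitosis, to 125 FPKM for SEC13. The inner ring ran from 22.3 FPKM for NUP35 to 105 FPKM for NUP205, and the central channel from 31.4 FPKM for NUP58 to 63.4 FPKM for NUP62, which together with NUP54 form one trimer. The spread was 6.61-fold on the cytoplasmic side, from GLE1 to NUP214. AHCTF1 and RANBP2 share sequence with other genes, as described below for POM121, and 48.4% and 27.1% of their 50-base windows also occur in transcripts of other genes, mainly AHCTF1P1 and RGPD3, so their levels are less certain.

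Pore transcripts varied less over time than the median gene. The coefficient of variation over 22 libraries had a median of 10.6% among members and 14.2% over all genes, and the highest value of a member exceeded its lowest by a median of 1.48-fold, against 1.75-fold over all genes. This was not particular to the pore. The median variation was 9.67% among 24 nuclear transport receptors and 9.45% among 11 lamina and inner membrane genes. Among 10 genes of the Ran cycle and messenger RNA export it was 13.5%. The median ranges of these 3 lists were 1.41-fold, 1.49-fold and 1.61-fold. NUP205 was the steadiest, between 95.1 and 121 FPKM (1.27-fold). The widest ranges were those of POM121C at 4.23-fold, AAAS, which anchors to the membrane protein NDC1 and is mutated in triple A syndrome, at 2.14-fold, and NUP214 at 2.13-fold. With all 24 libraries, 18 of 31 members had their highest value at 18 h. The share over all genes was not computed, so this count cannot be read as particular to the pore. The FPKM summed over the whole table was also highest at 18 h. It was 591309, against 456791 to 520382 in the 20 libraries other than 6 h, 16 h, 18 h and 32 h. Over the 22 libraries the highest values were spread, with 5 members each at 6 h, 10 h and 22 h and 6 at 32 h. The lowest values over the 22 libraries lay at 46 h in 7 members, at 32 h in 5 and at 44 h in 4.

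**Figure D2:**
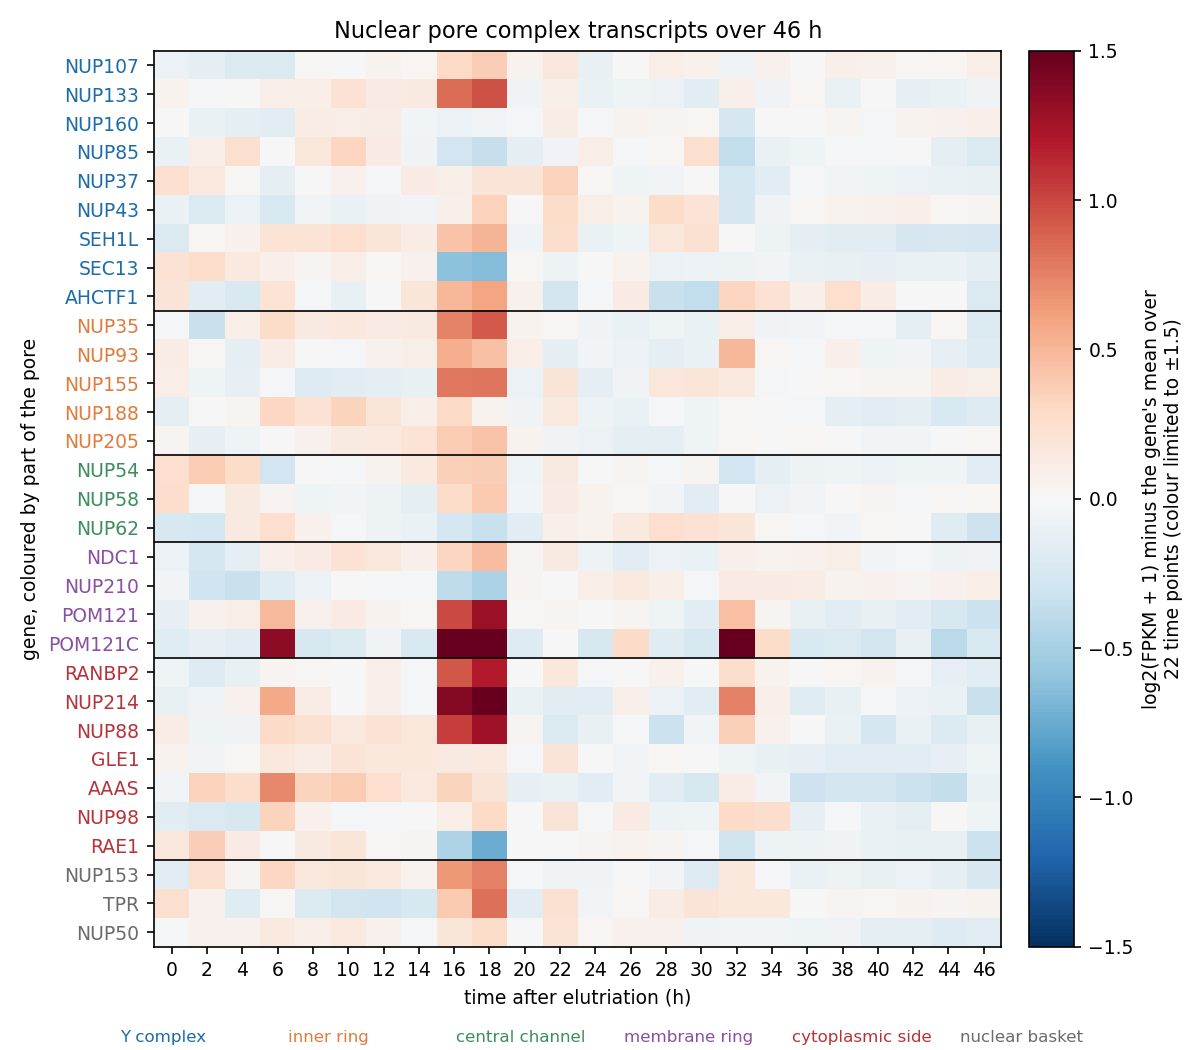
Heat map of the 31 genes (rows, by part of the pore) over 24 time points (columns, in h), as log2(FPKM + 1) minus the gene's mean over the 22 libraries without 16 h and 18 h. The columns of 16 h and 18 h stand out, most of all for NUP214 and POM121C, and POM121C is also high at 6 h and 32 h.

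The first question was whether pore transcripts followed the cell cycle. Order in time was tested with the JTK statistic, the largest Kendall correlation of a gene with 12 phases of a 24 h cosine, with a permutation test over 100000 orderings of the time points and Benjamini-Hochberg adjustment over all 12285 genes. At an adjusted p of 0.05 or below, 3 of 31 members were called, or 9.68%, against 11.9% of all genes. The share of members was therefore not above the background, and unadjusted p-values of 0.05 or below were likewise held by 10 members, or 32.3%, against 30.2% of all genes. Among S phase references 4 of 5 were called, each with a permutation adjusted p of 0.0048 and a best phase of 2 h or 4 h, whereas 0 of 5 G2/M references passed, with best phases between 16 h and 20 h.

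NDC1, a transmembrane nucleoporin needed for pore insertion, rose and fell in both cycles. From 0 h to 10 h its level was 46.8, 41.1, 44.9, 52.6, 54.2 and 57.8 FPKM, and from 12 h to 22 h it was 56.2, 52.4, 62.4, 69.0, 51.1 and 54.6 FPKM. In the second cycle it was 47.2, 44.0, 46.6, 46.4, 52.5 and 51.8 FPKM from 24 h to 34 h, and 51.8, 52.8, 48.1, 49.2, 47.2 and 47.8 FPKM from 36 h to 46 h. The low points at 2 h and 26 h were thus 24 h apart, and the middle of each cycle was higher. The best phase was 14 h (Kendall tau of 0.57, permutation adjusted p = 0.023). NDC1 was also the 1 member still called without the 6 h, 16 h, 18 h and 32 h libraries, where 8.64% of all genes were called, but leaving out 2 h, 4 h or 26 h ended the call.

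NUP62, the glycine-rich protein of the central channel that binds transport receptors, had the smallest adjusted p. It ran from 49.9 FPKM at 18 h over a median of 62.9 to 75.1 FPKM at 28 h, with a first high of 75.1 FPKM at 6 h and low values of 53.1 FPKM at 0 h and 50.4 FPKM at 46 h. Its best phase was 6 h (Kendall tau of 0.59, permutation adjusted p = 0.018), which followed that of the S phase references. The call held with each single library left out, and ended after a trend with GC content was removed (permutation adjusted p = 0.34), and NUP62 has a GC content of 58.4%, the highest among members. In addition 18.9% of its 50-base windows occur in transcripts of other genes.

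NUP205 rose from 96.7 FPKM at 2 h to 121 FPKM at 14 h, 137 FPKM at 16 h and 142 FPKM at 18 h, then stood between 95.1 and 109 FPKM from 20 h on. Its best phase was 14 h (Kendall tau of 0.53, permutation adjusted p = 0.037). The second cycle held only a shallow rise, from 95.1 FPKM at 26 h to 107 FPKM at 32 h, and without 16 h and 18 h the adjusted p was 0.053 by the same permutation test. Without those libraries 5 members were called, NDC1, NUP188, NUP62, NUP88 and SEH1L, or 16.1%, against 14.7% of all genes. With the GC trend removed from all 24 libraries 2 were called, NDC1 and NUP205, or 6.45%, against 7.41% of all genes.

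**Figure D3:**
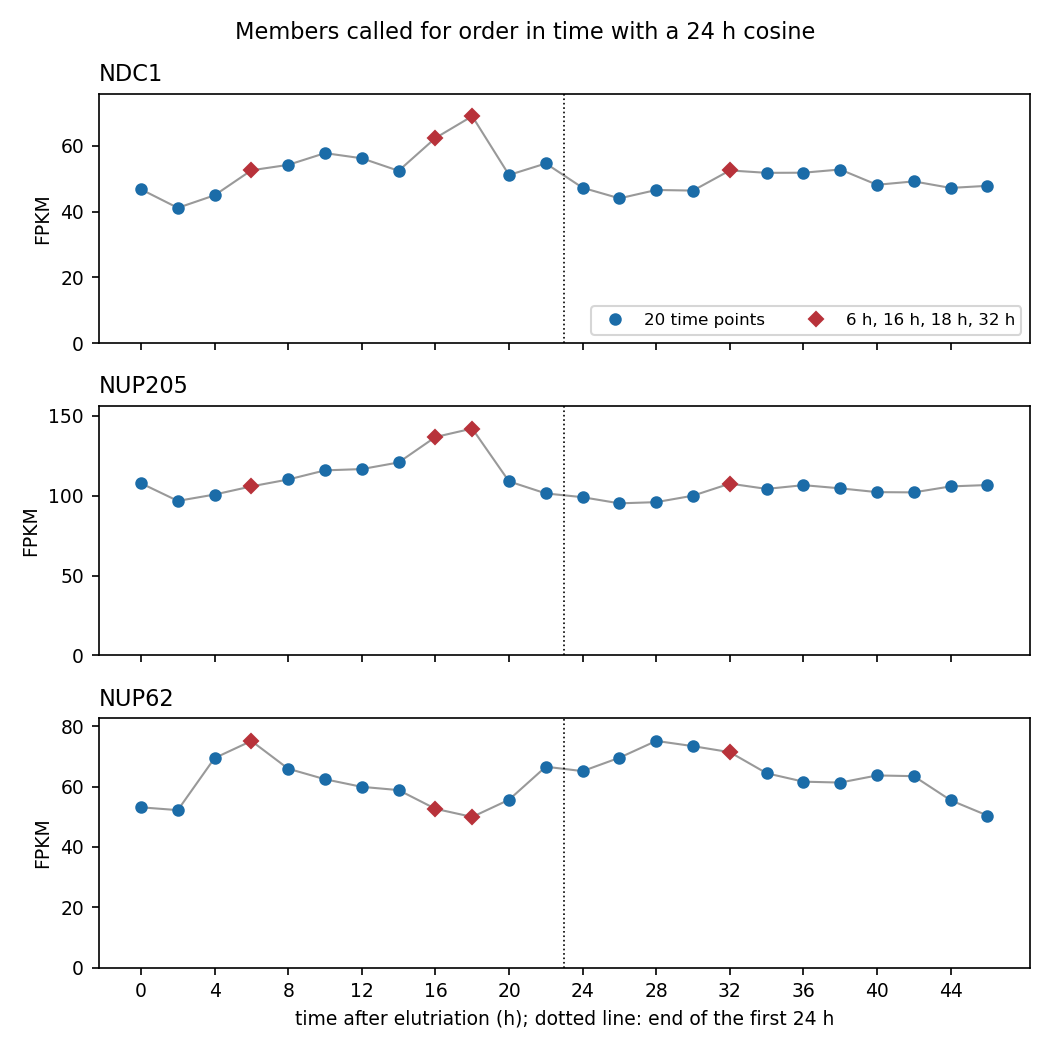
FPKM of NDC1, NUP205 and NUP62 at each time point in h, with red diamonds for 6 h, 16 h, 18 h and 32 h. NDC1 dips at 2 h and 26 h, NUP205 is highest at 18 h (142 FPKM), and NUP62 is highest near 6 h and 28 h.

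The 250 bases before the RefSeq start (GRCh38.p14) are shown for these 3 genes, to set genes with detected order side by side, and no one of the motifs searched was found in all 3. RefSeq promoter entries were matched for 28 of 31 members, without NUP43, AHCTF1 and GLE1. In the sequences below, printed 5′ to 3′ on the strand of the gene, capitals mark matches on either strand to 6 motifs: CCAAT (bound by NF-Y), GGGCGG (SP1), CCGGAA (ETS factors), CATGCGC (NRF1), TTCCCGC (E2F) and TTTGAA (the cell cycle homology region, CHR). NDC1 lies at chr1:53838297-53838546 on the minus strand, NUP205 at chr7:135557667-135557916 on the plus strand and NUP62 at chr19:49929505-49929754 on the minus strand.
NDC1: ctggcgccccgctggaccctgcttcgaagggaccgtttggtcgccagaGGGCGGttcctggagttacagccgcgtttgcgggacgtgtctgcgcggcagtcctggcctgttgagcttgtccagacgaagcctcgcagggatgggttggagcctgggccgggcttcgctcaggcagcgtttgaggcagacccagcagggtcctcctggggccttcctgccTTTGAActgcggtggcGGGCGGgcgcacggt
NUP205: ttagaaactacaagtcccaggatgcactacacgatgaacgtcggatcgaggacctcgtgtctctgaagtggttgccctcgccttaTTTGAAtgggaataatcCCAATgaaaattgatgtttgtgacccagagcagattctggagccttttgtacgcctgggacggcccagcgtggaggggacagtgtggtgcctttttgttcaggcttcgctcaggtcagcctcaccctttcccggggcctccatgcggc
NUP62: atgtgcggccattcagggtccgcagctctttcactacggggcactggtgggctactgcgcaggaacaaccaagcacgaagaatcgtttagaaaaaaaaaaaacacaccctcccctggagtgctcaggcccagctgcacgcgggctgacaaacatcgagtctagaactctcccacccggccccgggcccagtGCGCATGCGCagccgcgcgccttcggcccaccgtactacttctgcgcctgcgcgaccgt
The NDC1 window held SP1 and CHR letters, the NUP205 window NF-Y and CHR letters, and the NUP62 window NRF1 letters that overlap their own reverse complement.

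Among the 28 member promoters, the ETS letters CCGGAA were the most frequent, in 15 (53.6%), against 28.1% of 9004 promoters of genes in the table and 14.8% of 27305 promoters in all. The NRF1 letters were found in 5 (17.9%), those of NUP107, NUP50, NUP62, POM121 and POM121C, against 7.21% of promoters of genes in the table and 3.96% in all. The CHR letters were found in 6 (21.4%), against 8.05% and 13.6%. NF-Y letters were found in 32.1%, against 36.4% and 33.0%, and E2F letters in 7.14%, against 9.32% and 5.59%. SP1 letters, in 42.9%, were below the share among genes of the table, 68.9%, and near that among all promoters, 42.3%. These are counts of letters in a window and no evidence of binding.

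The second question was whether pore transcripts repeated at the same level in the second cycle. Each of the 12 hours of the first cycle was paired with the hour 24 h later, and the mean difference of log2(FPKM + 1), second minus first, was tested by an exact two-sided sign-flip permutation test over 12 pairs, Benjamini-Hochberg adjusted over the 12253 genes whose mean reached 1 FPKM. The second cycle is also the later part of the culture, so cycle and time in culture cannot be told apart. Pore transcripts were lower in the second cycle: 8 of 31 fell (25.8%), against 6.8% of all genes, and 1 rose (3.23%), against 10.0% of all genes. The difference was negative in 25 of 31 members with a median of -0.14, while it was negative in 52.0% of all genes with a median of -0.01. Without the pairs of 16 h and 18 h it was negative in 20 members with a median of -0.08, and with the GC trend removed in 22 members with a median of -0.09. Among markers of other cell types, CD3D rose by 0.63 (higher in 12 of 12 pairs, exact permutation adjusted p = 0.012) and COL1A2 by 0.35 (higher in 10 of 12 pairs, exact permutation adjusted p = 0.029), and the part of other cells in the comparison was not tested. With each library centred on its median, 13 members fell and 1 rose, and the all-gene calls shifted from 833 lower and 1225 higher to 1170 lower and 1128 higher.

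AAAS, on the cytoplasmic side, fell most. It ran from 51.1 over a median of 67.2 to 92.5 FPKM in the first cycle and from 43.3 over 48.6 to 60.5 FPKM in the second. The ranges overlapped, but the later value was the lower one in 12 of 12 pairs, and the difference was -0.41 ± 0.25 (SD of 12 pairs, exact permutation adjusted p = 0.012). NUP133, a Y complex subunit, was lower in 12 of 12 pairs, from a median of 52.9 FPKM (47.4 to 96.4) to 46.6 FPKM (44.1 to 51.8), with a difference of -0.27 ± 0.33 (exact permutation adjusted p = 0.012). NUP188, an inner ring scaffold protein, was lower in 11 of 12 pairs, from a median of 70.8 FPKM (59.4 to 82.1) to 61.4 FPKM (55.2 to 66.0), with a difference of -0.22 ± 0.14 (exact permutation adjusted p = 0.019). For all 3 the call also held without the pairs of 16 h and 18 h, where the difference of NUP133 was -0.14.

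The 5 other members that fell were NUP153 (-0.27) and NUP50 (-0.16) of the nuclear basket, GLE1 (-0.19) on the cytoplasmic side, NUP37 (-0.18) of the Y complex and NUP205 (-0.14) of the inner ring. GLE1 had medians of 23.9 and 20.2 FPKM in the first and second cycle, and NUP153, which ties the basket to the pore, 73.3 and 61.8 FPKM. Their exact permutation adjusted p-values lay between 0.021 for GLE1 and 0.040 for NUP50, and without the pairs of 16 h and 18 h between 0.050 and 0.094, where the differences of NUP153 and NUP205 were -0.16 and -0.08. With the GC trend removed, NUP37 (-0.11, exact permutation adjusted p = 0.35) and NUP50 (-0.12, exact permutation adjusted p = 0.053) lost their calls, and the difference of NUP205 was -0.09. NUP37 also lost its call with upper-quartile scaling (-0.14). NUP50 and NUP133 share 15.3% and 7.39% of their 50-base windows with transcripts of other genes.

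NUP210, a membrane nucleoporin with a large domain in the space between the nuclear membranes, went the other way. It ran from 41.6 over a median of 55.7 to 59.8 FPKM in the first cycle and from 57.4 over 62.1 to 64.7 FPKM in the second. It was higher in 12 of 12 pairs, by 0.23 ± 0.17 (exact permutation adjusted p = 0.012), and by 0.18 without the pairs of 16 h and 18 h (exact permutation adjusted p = 0.029). With the GC trend removed the difference was 0.15 (exact permutation adjusted p = 0.011). Its 4 lowest values all lay in the first cycle, with 47.2 and 46.1 FPKM at 2 h and 4 h, and 44.5 and 41.6 FPKM in the irregular libraries.

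The irregular libraries bore on this comparison, since both lie in the first cycle. Without their pairs, 5 members fell (16.1%), against 4.73% of all genes, and 1 rose (3.23%), against 8.72%. Only 4 of the 9 members called with 12 pairs were called with 10, AAAS, NUP133, NUP188 and NUP210. RAE1, a messenger RNA export factor that pairs with NUP98, and SEC13 were called lower with 10 pairs, at -0.19 and -0.15 (exact permutation adjusted p = 0.029 for both), each having been low at 16 h and 18 h. When the pairs of 6 h and 8 h were dropped too, no gene of the whole table passed the adjusted threshold. The smallest exact permutation adjusted p was 0.077, and 8 pairs allow no exact p below 0.0078. At an unadjusted exact p of 0.05 or below, 13 members were lower and 1 higher. The share over all genes at this threshold was not computed, so this count has no background and cannot be read as a result about members.

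**Figure D4:**
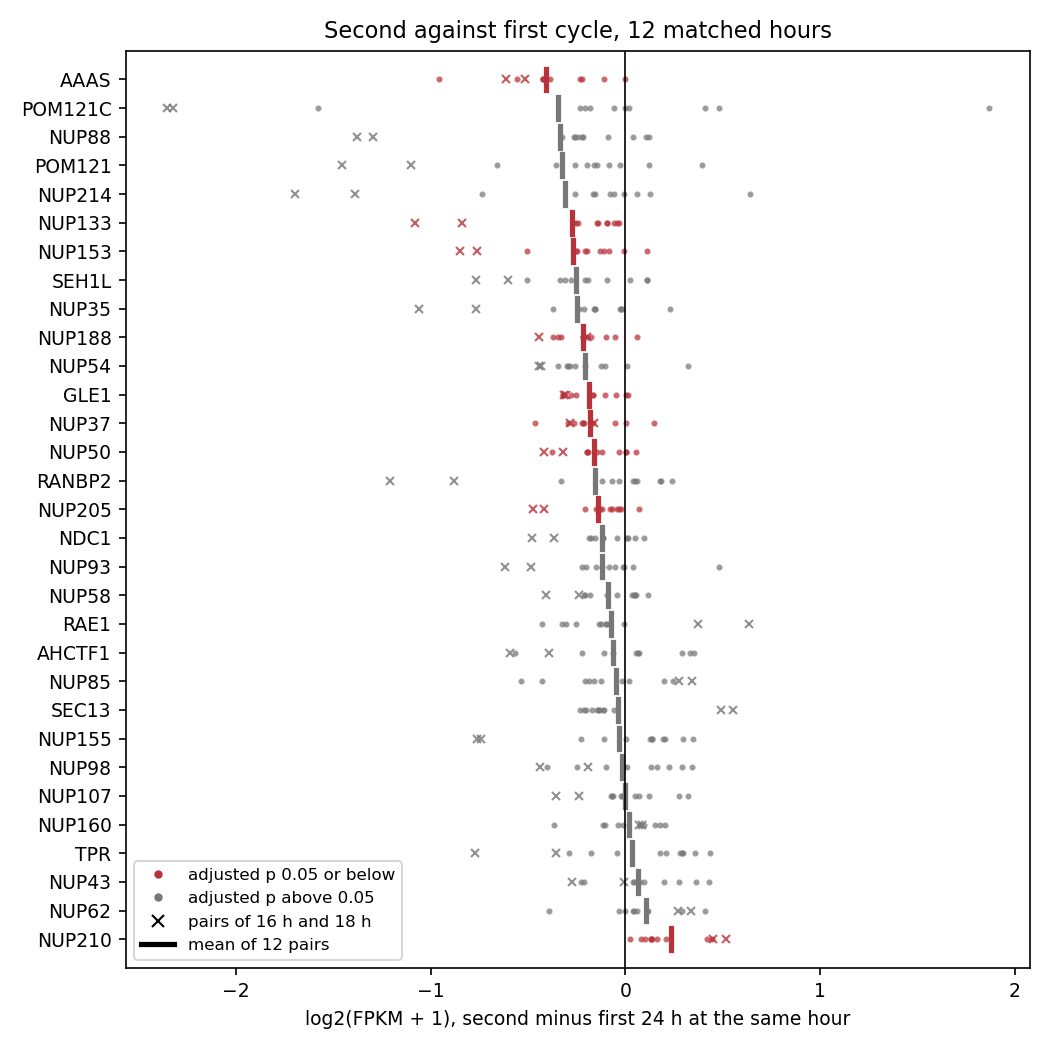
Difference in log2(FPKM + 1) between the second and the first 24 h for each of 12 matched hours (points, with crosses for the pairs of 16 h and 18 h) and their mean (vertical bar), by gene, in red where the exact sign-flip permutation test passed. Of the 9 red genes, 8 lie left of 0 and NUP210 lies to the right.

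The third question was how pore transcripts behaved in the irregular libraries. The deviation of a gene at 16 h and 18 h was taken as the mean distance of its log2(FPKM + 1) from the line between 14 h and 20 h. There is no replicate, so no test was made, and 16 other pairs of neighbouring libraries served as a reference. Members stood above the line in 24 of 31 cases, as did 58.1% of all genes. The median of members was 0.32, against 0.14 over all genes and -0.09 to 0.06 for the member median at the reference pairs. At least 2-fold above the line were 5 members (16.1%), against 8.95% of all genes, and 0 members were at least 2-fold below, against 7.11%. A deviation above the gene's own range at the reference pairs was seen in 19 members (61.3%), against 43.6% of all genes, and one below it in 4 (12.9%), against 28.0%. Beside this, 6 of 10 erythroid markers were at least 2-fold below the line and 1 was above, and the part of cell composition or RNA quality in these deviations was not tested.

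The 5 members were POM121C, POM121, NUP214, RANBP2 and NUP88. POM121C and POM121, paralogs that span the membrane, were at 20.1 and 20.8 FPKM at 14 h, 103 and 41.5 at 16 h, 113 and 51.4 at 18 h, and 20.7 and 20.7 at 20 h. NUP214 went from 138 FPKM at 14 h to 368 at 16 h and 430 at 18 h and back to 132 at 20 h. Its scaffold partner NUP88 went from 54.2 FPKM to 100.5 and 118 and back to 49.5, and RANBP2, whose protein modifies others with SUMO at the cytoplasmic filaments, from 22.4 FPKM to 44.7 and 53.8, against 20.1 to 27.7 FPKM over the other 22 libraries. In each of the 5 genes the 2 libraries lay above every other of the 22. The mean deviations were 2.35 for POM121C, 1.55 for NUP214, 1.12 for POM121, 1.08 for RANBP2 and 1.06 for NUP88.

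At a threshold of 1.5-fold, 10 members were above (32.3%), against 23.9% of all genes. The further ones were NUP155 (0.90) and NUP35 (0.74) of the inner ring, NUP133 (0.85), and TPR (0.81), the main filament protein of the basket, with NUP153 (0.69). By module, all 5 members of the inner ring and all 3 of the basket lay above the line and above their own reference range. Of all genes, 43.6% lay above their own reference range. With a GC trend removed, as described below, NUP205 (-0.04) and NUP50 (-0.13) of these modules lay below the line, and their other members stayed above. The Y complex had 5 above the line and 4 below before that removal. Below by 1.5-fold were 2 members (6.45%), against 16.8% of all genes. SEC13 went from 130 FPKM at 14 h to 81.6 at 16 h and 79.4 at 18 h and back to 127 at 20 h (-0.67), and RAE1 from 58.2 to 40.6 and 33.3 and back to 56.9 (-0.63).

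**Figure D5:**
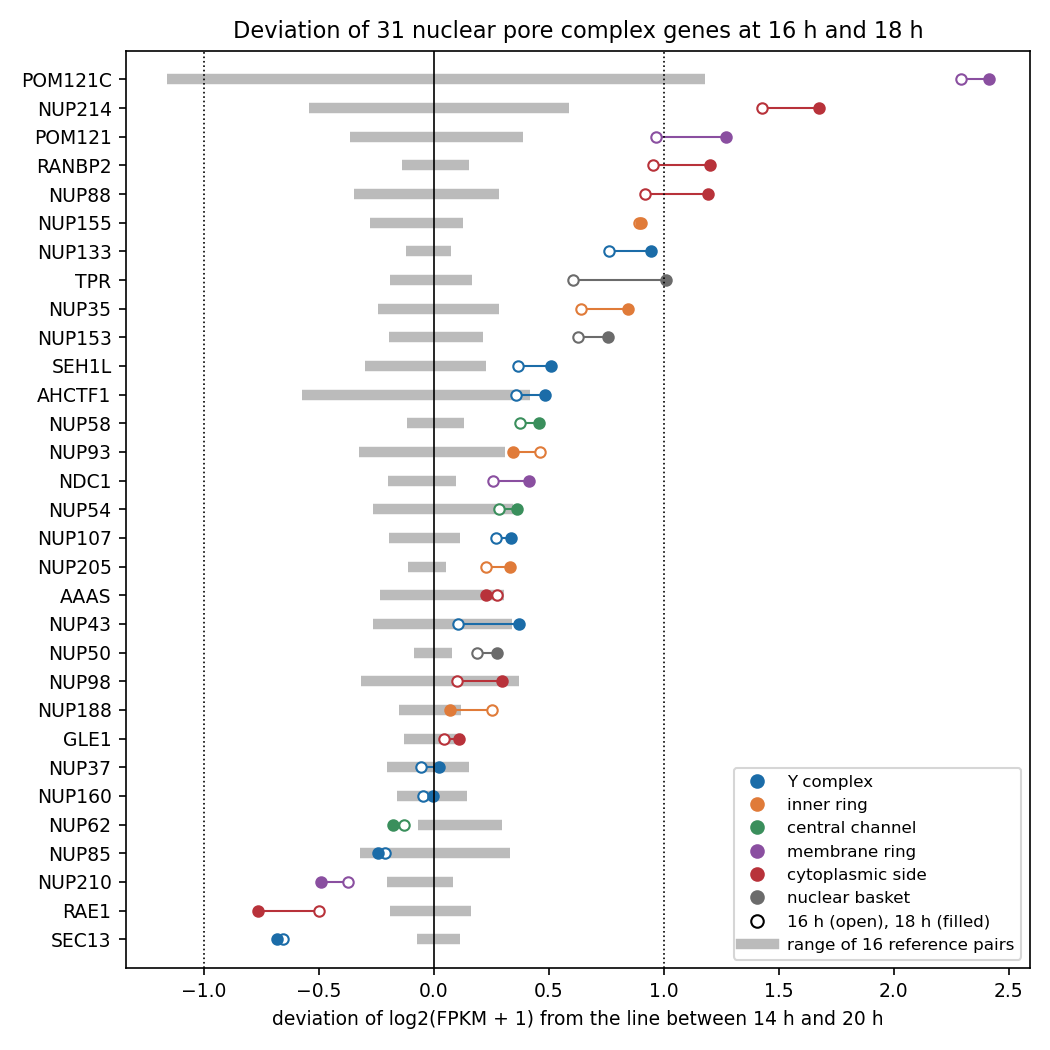
Deviation of log2(FPKM + 1) at 16 h (open) and 18 h (filled) from the line between 14 h and 20 h for each gene, coloured by part of the pore, with a grey bar for the range of 16 reference pairs and dotted lines at 2-fold. POM121C, NUP214, POM121, RANBP2 and NUP88 have mean deviations from 2.35 to 1.06, and SEC13 and RAE1 lie furthest below 0.

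Base composition moved with these deviations over the whole table. Across 12148 genes the deviation fell as GC content rose (Pearson r = -0.51, Spearman rho = -0.56, a description across genes that share libraries), and members had a lower median GC content than all genes, 44.4% against 47.8%, and a longer median transcript, 5376 against 3245 bases. Across the 31 members r was -0.01 and rho -0.25, and without the GC-rich pair of POM121 and POM121C r was -0.38 and rho -0.48 over 29 members. Against log2 transcript length, r was 0.42 and rho 0.45 across the 31 members, and 0.28 and 0.30 across the 12148 genes. The parts of GC content and length were not separated. After a smooth GC trend was removed at each time point, the member median was -0.01, 15 members lay above the line, and 11 members changed sign. NUP214 (1.58), POM121 (1.46) and POM121C (2.63) stayed at least 2-fold above, while NUP88 (0.86) and RANBP2 (0.56) did not. SEC13 and RAE1 stayed below, at -0.72 and -0.80. With each library centred on its median, which moved the median of all genes from 0.14 to 0.02, the member median was 0.21, and 3 members, NUP214, POM121 and POM121C, were at least 2-fold above.

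POM121C stood apart in 2 further libraries. It was at 61.8 FPKM at 6 h and 75.1 FPKM at 32 h, besides 103 and 113 FPKM at 16 h and 18 h, while the other 20 libraries held 17.8 to 29.2 FPKM. Measured against the mean of its neighbours it was 1.55 above at 6 h and 1.60 above at 32 h on the log2 scale. It was the 1 member (3.23%) at least 2-fold above at 6 h, against 0.571% of all genes, and likewise at 32 h, against 0.449% of all genes, and no member was 2-fold below at either, against 0.865% and 1.01%. Genes at least 2-fold above in all these libraries numbered 20 of 12253 (0.163%), among them RPS25, HDLBP, PIGU and ZNF302, named here after their values were seen. Also among them were RPS23P8, RPS26P19, NPIPB3, IFNAR2-IL10RB, CFAP298-TCP10L and several entries without a gene symbol. Whether these entries share reads with other genes was not tested.

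POM121 followed its paralog at a smaller scale. POM121 was at 28.3 to 51.4 FPKM in the 6 h, 16 h, 18 h and 32 h libraries and at 16.2 to 22.2 FPKM in the other 20. The ratio of POM121C to POM121 was 2.13 to 2.66 in these 4 libraries and 0.918 to 1.39 in the other 20, so the groups did not overlap. The longest GENCODE 29 transcript of POM121C shares 52.1% of its 50-base windows with POM121 and 63.3% with any other gene. That of POM121 shares 35.0% with any other gene, so the division of reads between the paralogs is uncertain. The windows before their starts are also close: 226 of 264 aligned columns were identical (85.6%), against 48.0% to 52.0% for the other pairs among 6 windows, and both hold ETS and NRF1 letters. RefSeq lists a second start of POM121, whose window was 51.4% identical to that of POM121C and held SP1 and NRF1 letters, so the likeness concerns the first start. The first POM121 window lies at chr7:72879107-72879356 on the plus strand and that of POM121C at chr7:75486300-75486549 on the minus strand (GRCh38.p14, RefSeq), printed 5′ to 3′ on the strand of the gene with the motif matches in capitals.
POM121: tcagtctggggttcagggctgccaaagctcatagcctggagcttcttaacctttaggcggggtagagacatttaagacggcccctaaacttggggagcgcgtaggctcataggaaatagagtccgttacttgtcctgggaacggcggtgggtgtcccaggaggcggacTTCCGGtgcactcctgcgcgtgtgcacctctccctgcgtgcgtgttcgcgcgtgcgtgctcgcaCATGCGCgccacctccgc
POM121C: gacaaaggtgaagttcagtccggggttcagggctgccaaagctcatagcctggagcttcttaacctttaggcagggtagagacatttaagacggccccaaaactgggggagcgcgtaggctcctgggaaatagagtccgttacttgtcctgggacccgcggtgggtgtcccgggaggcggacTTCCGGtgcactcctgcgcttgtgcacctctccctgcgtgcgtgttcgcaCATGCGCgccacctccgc
The shared capitals TTCCGG and CATGCGC lie in the same order near the end of both windows.

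Genes that work with the pore gave a frame for these values, from lists chosen by function. Of 24 nuclear transport receptors, which carry cargo through the channel, 2 were called for order in time, KPNA6 (permutation adjusted p = 0.029) and IPO11 (permutation adjusted p = 0.041). Without 16 h and 18 h both calls ended (permutation adjusted p = 0.10 and 0.088). In the second cycle 2 fell, CSE1L, the exporter that returns importin alpha, by 0.32 (exact permutation adjusted p = 0.029) and IPO4 by 0.31 (exact permutation adjusted p = 0.049), 0 rose, and 22 of 24 differences were negative with a median of -0.15. Without the pairs of 16 h and 18 h, neither passed: the difference was -0.12 for CSE1L (exact permutation adjusted p = 0.069) and -0.32 for IPO4 (exact permutation adjusted p = 0.089). At 16 h and 18 h, 22 of 24 receptors lay above the line with a median of 0.55, and IPO8 (1.21), CSE1L (1.19), IPO9 (1.19) and KPNA3 (1.08) were at least 2-fold above.

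Of 10 genes of the Ran cycle and messenger RNA export, RCC1, the exchange factor of Ran, was called for order in time (permutation adjusted p = 0.037), and RANBP1 fell in the second cycle by 0.20 (exact permutation adjusted p = 0.044). Both calls ended without 16 h and 18 h, at a permutation adjusted p of 0.058 for RCC1 and an exact permutation adjusted p of 0.094 for RANBP1. The export receptor NXF1 (1.64), the helicase DDX19B (1.31) and the Ran importer NUTF2 (1.03) were at least 2-fold above the line at 16 h and 18 h. Of 11 lamina and inner membrane genes, LBR and LEMD2 were called for order in time (permutation adjusted p = 0.023 for both), 0 fell and 0 rose in the second cycle by the exact permutation test, and BANF1, which bridges chromatin to the envelope, was at least 2-fold below the line at 16 h and 18 h (-1.30).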

How the data were processed

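RNA-seq of 24 K562 time points was analysed, each library assigned to its hour from the labels. The authors aligned reads with STAR and quantified them with Cufflinks2 and Cuffnorm against GRCh37; further version numbers and the annotation are not given in the sources used here. The deposited FPKM values were used as they stand. A second table, deposited by the authors as a cleaned version, holds a score per gene (Z-scored and quantile normalized) and served as an alternative only. Every gene in the FPKM table had at least 1 FPKM in at least 12 time points. The members and gene lists were chosen with earlier results of these data known.

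Transcript length, GC content and shared 50-base windows were those of the longest GENCODE 29 (GRCh38) transcript of each gene. Its windows were compared with all transcripts of other genes. Promoters came from RefSeq (GRCh38.p14), and no coordinates were converted. Differences were taken on log2(FPKM + 1), so that fold changes of low genes come out too small. The test of order used 100000 permutations of the time points, which assume exchangeable time points, so that a slow drift lowers p. The cycle comparison used 4096 sign flips (smallest p 0.000488). Its pairs are neighbouring hours of 1 culture and are not independent, so that a slow drift lowers p there too. Values over time and full statistics are given for members called in a test, at least 2-fold off at irregular hours, or with the highest or lowest level. Scripts used Python 3.11.15, numpy 2.4.6, pandas 2.3.3 and scipy 1.17.1, and were tested on simulated data. Alternatives covered scaling, GC trend, period, filters, pseudocount and single time points. The lymphoid marker list is reported here only for CD3D. Count models were not used, and the depth per sample is unknown.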

Additional observations from a re-analysis of the deposited data

How the results depend on the processing

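Order in time called 3 members, and 5 with upper-quartile scaling or without 16 h and 18 h, 1 without 6 h, 16 h, 18 h and 32 h (also 1 when the GC trend was removed as well, an alternative chosen after seeing the data), and 0 with a 20 h or a 28 h cosine. With either cosine 7 members had an unadjusted permutation p of 0.05 or below. The share of all genes at that threshold was not computed, so these 7 cannot be set against a background. Leaving out single libraries gave 1 to 4, with 1 without 2 h, 4 h or 26 h, and the call of NUP205 was lost without 2 h, 4 h, 8 h, 10 h, 12 h, 14 h, 16 h, 22 h, 24 h, 26 h, 28 h or 30 h. The 8 members lower in the second cycle became 13 with centring, 5 without the pairs of 16 h and 18 h and 0 (with 0 higher) without the pairs of 6 h, 8 h, 16 h and 18 h, which left 8 pairs. Leaving out single pairs gave 5 to 10 lower, with 5 without the pair of 10 h, and 1 to 2 higher, with NUP62 added without the pair of 22 h. The 5 members at least 2-fold above at 16 h and 18 h became 3 with centring, 2 with upper-quartile scaling, 3 with the GC trend removed, 2 at 16 h alone, 6 at 18 h alone, 10 at 1.5-fold and 3 of 29 without POM121 and POM121C (chosen after seeing the data), and the count below became 2 at 1.5-fold. The median deviation of 0.32 became 0.208, 0.090 and -0.011 under these 3 scalings, 0.28 at 16 h alone and 0.36 at 18 h alone. At 32 h, 2 members were above at 1.5-fold, as were 417 of 12253 genes. At 16 h and 18 h, 1097 of the 12253 genes were at least 2-fold above. That number was 794 with centring, 579 with upper-quartile scaling and 670 of 12148 with the GC trend removed. It was 892 at 16 h alone, 1334 at 18 h alone and 2933 at 1.5-fold. Of all genes, order in time called 11.9%, 13.4% with upper-quartile scaling and 14.7% without 16 h and 18 h. The share was 8.64% without 6 h, 16 h, 18 h and 32 h, and 5.34% with the GC trend also removed. It was 3.1% with the 20 h and 4.05% with the 28 h cosine, and 7.63% to 14.7% with single libraries left out. Genes lower in the second cycle numbered 833, and 1170 after centring. They numbered 580 without the pairs of 16 h and 18 h and 469 without that of 10 h. The causes of these shifts were not tested. Of the alternatives planned for single members, 226 kept their side of the threshold and 59 lost it. Direction was compared for the cycle comparison only, and was kept there. The labels give no replicate numbers, so no fit with replicates as a block could be made, and the only pairs were those of hours 24 h apart. Depth is unknown, so the precision of single FPKM values cannot be given.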

Other observations

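XKR3, the gene fused to NUP214 in K562, was chosen after its values were seen. It was present at 12.9 FPKM at the lowest (46 h), a median of 14.9 and 22.0 FPKM at the highest (6 h).

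The profile of the whole pore can be read from the median member relative to its own mean over 22 libraries. On the log2 scale the 6 h and 10 h libraries both held 0.10 and the 22 h library 0.09, whereas the last 3 libraries held -0.09, -0.10 and -0.13, and at 46 h 8 of 31 members were above their own mean. The median gene of the table was at 0.00 at 46 h. The 16 h and 18 h libraries held 0.33 and 0.39, while the median gene of the table was also raised there, at 0.11 and 0.13. In both libraries 25 of 31 members were above their own mean, and the share of all genes above theirs was not computed.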
